A study of Mus musculus with 4 samples.

Results

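Pyy, Npy and Pthlh, 3 genes for secreted peptides, were picked because they had been seen to stand higher in epithelial-like cells of mouse lung tumours from animals labelled tamoxifen than from animals labelled vehicle. Calca, Chga, Scg5 and Pcsk1 were set beside them as genes of neuroendocrine cells and of peptide processing. They were selected on the level in epithelial-like cells, tamoxifen against vehicle, and the 7 genes were taken by symbol from the 32289 features counted in all 4 libraries. The ratios of the first 3 in that contrast therefore describe the choice and are not evidence for it. The measurements that the choice did not use are how the molecules were spread over cells, whether the same cells held more than 1 of the hormones, and whether the neuroendocrine genes moved as well.

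All 4 libraries came from mice with the alleles KrasFSF-G12D, p53frt, Rosa-FSF-CreERT2 and Hnf4aflox, so the vehicle groups carried the floxed Hnf4a too. Tumours were started with an adenovirus whose FlpO recombinase is driven by the mouse SPC promoter, which is active in alveolar type 2 cells. Tamoxifen or vehicle, named ethanol in 1 label and corn oil in another, was given after 10 weeks, and tumours were dissociated 2 weeks later. From each of the tamoxifen and vehicle suspensions, 1 library was made before and 1 after depletion of cells bearing CD45 (leukocytes) or CD31 (endothelium). Age, sex and the number of animals or tumours in a suspension are not given in the labels. Each group is therefore 1 library, the portions before and after depletion do not replicate each other, and no test between treatments was possible. Intervals below are 95% intervals that cover counting error only.

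Between 1033 and 7068 cells per library were epithelial-like, with 31878251 to 135708390 unique molecular identifiers (UMIs, each tagging 1 captured RNA molecule) in total. Median depth in these cells was 26219 UMIs before and 18353.5 after depletion in the vehicle libraries, and 29136.5 and 16874.5 in the tamoxifen libraries. Pairs of libraries shared 9 to 17 barcodes among kept cells. Hnf4a, the gene that Cre was meant to delete, was at 57.3 and 55.1 CPM (UMIs of the gene, scaled to a fixed total of UMIs in these cells) in the vehicle libraries before and after depletion and at 87.2 and 82.9 CPM in the tamoxifen libraries. It was thus higher, not lower, in the libraries labelled tamoxifen. Counts from the 3′ end of transcripts do not show whether an exon was lost, so every direction given here is between libraries as they are labelled.

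Neuropeptide Y (Npy) and peptide YY (Pyy) belong to 1 family of amidated peptides, the former best known from neurons and the latter from endocrine cells of the lower gut. Pthlh encodes parathyroid hormone-related protein, a local growth regulator that type 2 cells of the lung make and that squamous tumours can release. In a neuroendocrine cell such precursors are cut by prohormone convertases (Pcsk1, and Pcsk2 with its chaperone Scg5), trimmed by carboxypeptidase E (Cpe), amidated by Pam and stored in granules with chromogranin A (Chga). Calca, the gene for calcitonin and CGRP, marks the rare neuroendocrine cells of the normal airway.

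The start-site sequences of the 3 hormone genes are shown first, with Pcsk1 for comparison. The 3 genes moved in the same direction, but different motifs of a fixed list matched in their stretches. The sequences are from RefSeq (GRCm38.p6), 5′ to 3′ on the gene's own strand, and capitals mark exact matches to that list of motifs. Pyy is given for chr11:102107833-102107932 (minus strand), Npy for chr6:49822610-49822709 (plus strand), Pthlh for chr6:147264035-147264064 (minus strand) and Pcsk1 for chr13:75089757-75089825 (plus strand).
Pyy: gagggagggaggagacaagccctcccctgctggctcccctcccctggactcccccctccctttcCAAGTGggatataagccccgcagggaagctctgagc
Npy: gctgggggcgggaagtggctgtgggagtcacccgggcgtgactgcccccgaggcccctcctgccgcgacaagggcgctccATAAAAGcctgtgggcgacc
Pthlh: cctgcgccgcccCAGCTGggccgctccgcc
Pcsk1: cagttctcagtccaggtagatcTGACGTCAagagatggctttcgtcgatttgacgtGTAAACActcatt

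The Pyy stretch holds CAAGTG, the core of an NKX2 site, from -36 to -31 relative to the first of its 2 RefSeq start sites, which lie 56 bases apart. Npy holds the TATA-type box ATAAAAG from -20 to -14. Pthlh holds CAGCTG, an E-box, from -39 to -34. Only 30 bases are given because they lie inside the GENCODE gene, whose start is 170 bases upstream of the RefSeq start site. Pcsk1 holds TGACGTCA, the cAMP response element, and GTAAACA, the reverse complement of the FOX site TGTTTAC. Both strands of the 300-base windows (250 before and 50 after a start site) were searched, and all 7 genes had one. Among 32851 such windows CAAGTG is in 13.6%, ATAAAAG in 5.42%, CAGCTG in 16.3%, TGACGTCA in 1.79% and TGTTTAC in 3.65%. None of the 7 genes had CAAAGTCCA, the core of an HNF4 response element, which is in 0.475% of windows; this says only that those letters are not in these windows. No motif of the list was matched in all of Pyy, Npy and Pthlh. Only exact matches were counted, so near matches such as tataag in the Pyy stretch are unmarked. The search therefore does not show that the start sites differ in their elements.

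Pthlh was the most abundant of the 7 genes in epithelial-like cells on the CPM scale. Its level was 97.1 and 81.5 CPM in the vehicle libraries before and after depletion and 224.6 and 201.8 CPM in the tamoxifen libraries. Both tamoxifen libraries stood above both vehicle libraries, by 2.31-fold (log2 1.21, interval 1.15 to 1.27) before depletion and by 2.48-fold (log2 1.31, interval 1.28 to 1.34) after it. Pyy was at 27.5 and 10.8 CPM under vehicle and at 120.4 and 85.5 CPM under tamoxifen, 4.38-fold higher before depletion (log2 2.13, interval 2.02 to 2.24) and 7.89-fold higher after it (log2 2.98, interval 2.90 to 3.06). Npy was the lowest of the 3, at 3.29 and 4.16 CPM under vehicle against 22.7 and 14.0 CPM under tamoxifen. These values correspond to 6.89-fold (log2 2.78, interval 2.49 to 3.09) and 3.37-fold (log2 1.75, interval 1.62 to 1.89). The ordering of the libraries was the same for the 3 genes: both vehicle libraries lay below both tamoxifen libraries.

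The other 4 genes were low. Scg5, which encodes the convertase chaperone 7B2, was at 2.29 and 3.04 CPM under vehicle and 3.18 and 3.17 CPM under tamoxifen. Both tamoxifen values lay above both vehicle values, with raw log2 ratios of 0.47 (interval 0.03 to 0.92) before depletion and 0.06 (interval -0.13 to 0.26) after it. Chga was at 0.157 and 0.199 CPM under vehicle and 0.116 and 0.0971 CPM under tamoxifen, from 4 to 27 UMIs per library. Calca gave 4, 7, 0 and 79 UMIs (vehicle before and after depletion, then tamoxifen before and after), and Pcsk1 gave 2, 12, 1 and 28. The last value of each is the highest of its gene, and 1 cell, described further on, gave most of it. With 3 counts taken as the limit that a count of 0 allows, Calca could be at up to 0.0867 CPM in the tamoxifen library before depletion.

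**Figure D1:**
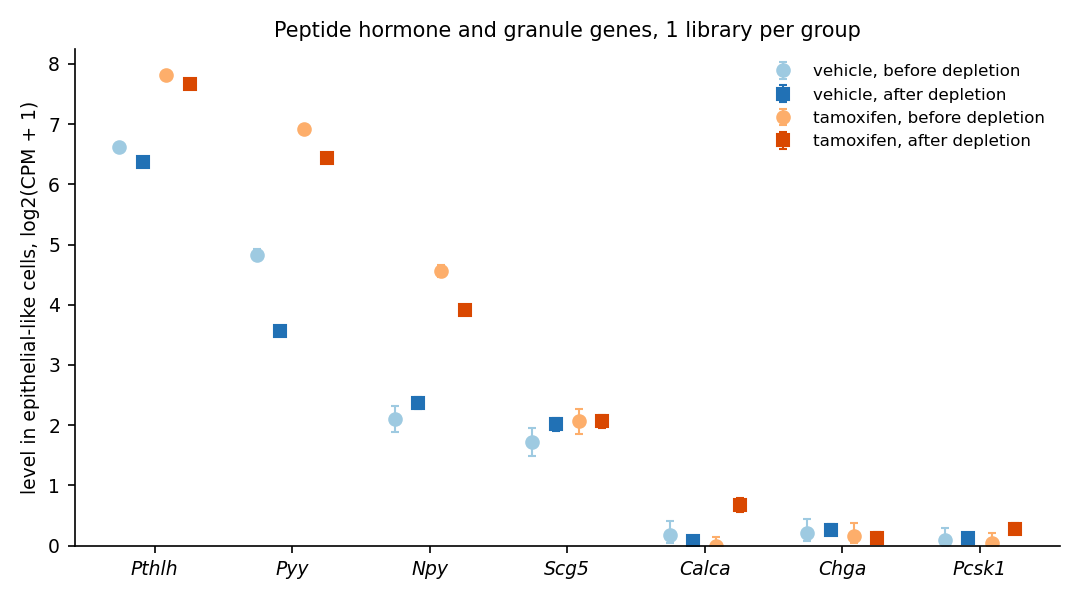
Level of the 7 genes in epithelial-like cells of each library on a log2(CPM + 1) scale; points are single libraries (circles before, squares after depletion) and bars are exact Poisson 95% intervals. Pthlh, Pyy and Npy lie higher in both tamoxifen libraries (orange) than in both vehicle libraries (blue), Scg5 lies near 3 CPM in most libraries, and Calca, Chga and Pcsk1 lie under 1 CPM.

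A gene was counted as higher or lower where the log2 ratio of CPM, with 1 CPM added to each, was at least 1 in size in the pair before depletion and in the pair after it, and where the gene reached 10 CPM in each pair. Of 9042 genes at that level, 0.387% counted as higher and 0.962% as lower. Pyy, Npy and Pthlh counted as higher, which is how they were picked, with log2 ratios of 2.09 and 2.87, 2.46 and 1.54, and 1.20 and 1.30. Calca, Chga, Scg5 and Pcsk1 never reached 10 CPM and so could not count. Where cells were instead taken 1 by 1, with at least 2 UMIs of Epcam, Krt8, Krt18, Cdh1 and Cldn7 together and none of Ptprc or Pecam1, the log2 ratio of Pthlh before depletion was 0.89 and Pthlh no longer counted. Without the cluster of epithelial-like cells led by myeloid genes, described below, the ratio of Pyy before depletion was 3.51.

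Few cells held the Pyy and Npy molecules. In the vehicle libraries 10 of 1033 and 78 of 6482 epithelial-like cells had a Pyy UMI, against 31 of 1068 and 353 of 7068 in the tamoxifen libraries. Cells with 10 or more Pyy UMIs numbered 4 and 17 under vehicle (0.387% and 0.262%) and 12 and 109 under tamoxifen (1.12% and 1.54%, intervals 0.582% to 1.95% and 1.27% to 1.86%). The fullest cell held 593, 406, 959 and 1072 Pyy UMIs in the libraries in the order vehicle before and after depletion, tamoxifen before and after. That single cell held 67.6% of all Pyy UMIs in the vehicle library before depletion, but 9.36% in the tamoxifen library after depletion, where the signal came from many more cells. With the fullest cell of each library left out, the log2 ratio of Pyy was 3.24 before and 3.15 after depletion.

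Npy was rarer still. Cells with 10 or more Npy UMIs numbered 3 and 6 under vehicle (0.290% and 0.0926%) and 3 and 25 under tamoxifen (0.281% and 0.354%). Before depletion the number of cells with any Npy UMI was 6 under vehicle and 6 under tamoxifen, and 1 tamoxifen cell held 721 of the library's 785 Npy UMIs (91.8%). Without the fullest cell of each library the Npy level before depletion was 1.95 CPM under vehicle and 1.86 CPM under tamoxifen, a log2 ratio of -0.05, so the higher level before depletion came from that cell. After depletion the ratio did not rest on 1 cell: without the fullest cell it was 1.25 CPM under vehicle and 10.1 CPM under tamoxifen, a log2 ratio of 2.30. Without the 10 fullest cells it was 1.77.

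Pthlh was widespread. It was seen in 271 and 1842 vehicle cells (26.2% and 28.4%) and in 458 and 2973 tamoxifen cells (42.9% and 42.1%). Cells with 10 or more UMIs made up 6.87% and 5.31% under vehicle and 16.4% and 11.5% under tamoxifen, with intervals of 14.2% to 18.7% and 10.8% to 12.3% for the latter. No cell held more than 295 UMIs, and the log2 ratio stayed at 1.28 and 1.29 without the fullest cell of each library. To compare cells at 1 depth, they were thinned to 5000 UMIs, which left 962 and 6074 vehicle cells and 1039 and 6710 tamoxifen cells. The share with a Pthlh UMI was then 13.6% and 15.6% under vehicle and 25.2% and 27.6% under tamoxifen. For Pyy it was 0.520% and 0.708% against 1.35% and 3.13%, and for Npy it was 0.208% and 0.247% against 0.385% and 0.686%. In endothelial-like cells, thinning to the same depth left Pthlh in 0.680% to 1.52% of cells in 3 libraries. In the tamoxifen library after depletion it was in 5 of 85 such cells (5.88%). Before thinning, the fullest endothelial-like cell held 13 Pthlh UMIs under vehicle before depletion and 15 under tamoxifen after it. Whether these UMIs are background or made by those cells was not tested. Those endothelial-like cells held a Pyy UMI in 1 case over all 4 libraries.

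**Figure D2:**
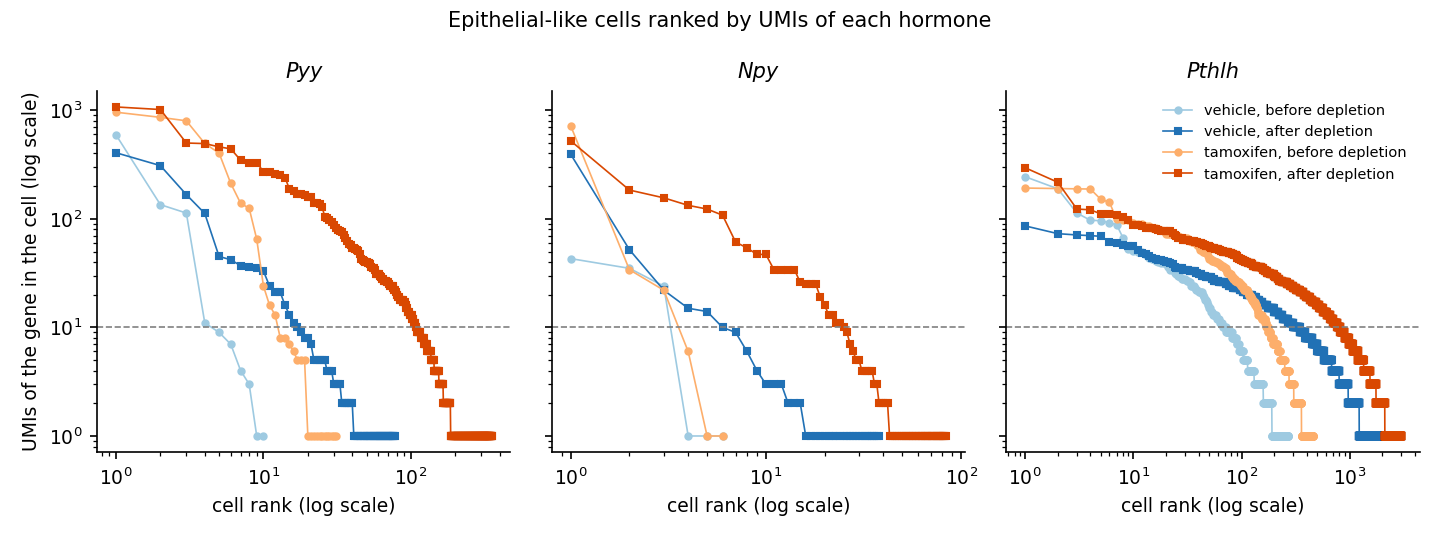
Epithelial-like cells of each library ranked by their UMIs of Pyy, Npy or Pthlh, with both axes on a log scale; each marker is 1 cell and the dashed line is at 10 UMIs. The Npy curve of the tamoxifen library before depletion (pale orange circles) starts at 721 UMIs and drops to its second cell, whereas the Pthlh curves fall slowly over many cells.

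Epithelial-like cells were then grouped into 24 clusters without using the 7 genes or any gene of the lists described below, so that the place of each hormone was not set by the hormone itself. Pyy lay mainly in cluster 1, whose leading genes were Tff1 (a gastric mucosal peptide), the mast cell protease genes Mcpt1 and Mcpt2, Spp1, Ctse (gastric cathepsin E) and Onecut2, a transcription factor of liver, gut and neural tissue. This cluster held 52 and 454 vehicle cells and 63 and 706 tamoxifen cells. The Pyy level in it was 147.8 and 92.7 CPM under vehicle and 1471 and 720.8 CPM under tamoxifen. Cells with 10 or more Pyy UMIs were 2.20% of the cluster in the vehicle library after depletion (10 of 454) and 13.7% in the tamoxifen library after depletion (97 of 706, interval 11.3% to 16.5%). It thus held 97 of the 109 such cells in that tamoxifen library, 9 of 12 in the one before depletion, and 10 of 17 and 2 of 4 in the vehicle libraries.

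Outside cluster 1 Pyy was lower. There it was at 20.5 and 3.72 CPM under vehicle and at 12.0 and 5.18 CPM under tamoxifen. The first of these values rests on 1 cell with 593 UMIs in cluster 0, a group of 239 epithelial-like cells led by myeloid genes such as Chil3 and Tyrobp. Without the fullest such cell of each library (added once the values were known) the levels were 0.832 and 2.39 CPM under vehicle and 5.44 and 4.52 CPM under tamoxifen, with both tamoxifen libraries above both vehicle libraries. In cluster 12 Pyy was at 70.8 CPM in the vehicle library after depletion and 5.66 CPM in the tamoxifen one, and in cluster 3, led by Rtkn2 and Hopx of the type 1 alveolar cell, at 89.4 and 5.37 CPM. Only 4 and 1 vehicle cells with 10 or more UMIs lay behind those 2 vehicle values. Of 15 clusters with 20 or more cells in both libraries after depletion, Pyy was at least 2-fold higher under tamoxifen in 8 and at least 2-fold lower in 2, these being clusters 12 and 3.

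Npy lay elsewhere, in cluster 12. Its leading genes were Inhba (an activin subunit), the mesenchymal filament gene Vim, Fbln2, Igfbp4 and Hmga2, a chromatin protein of embryonic and advanced tumour cells. The cluster was small, with 13 and 92 vehicle cells and 4 and 79 tamoxifen cells, yet it held 99.0% and 96.1% of epithelial Npy UMIs under vehicle and 96.2% and 82.9% under tamoxifen. Npy was at 199.0 CPM in it under vehicle after depletion and at 586.6 CPM under tamoxifen. Single cells of the cluster made up much of these values. In the vehicle library after depletion 1 of them held 394 of the 564 epithelial Npy UMIs. The cell with 721 of 785 in the tamoxifen library before depletion lay in it too. In the tamoxifen library after depletion its fullest cell held 523 of 1876. Cells with 10 or more Npy UMIs were 6 of 92 (6.52%, interval 2.43% to 13.7%) and 21 of 79 (26.6%, interval 17.3% to 37.7%). The remaining 4 such tamoxifen cells were all in cluster 1. In the rest of the epithelial-like cells Npy was under 1 CPM under vehicle (0.0322 and 0.165 CPM) and in the tamoxifen library before depletion (0.873 CPM), and at 2.45 CPM in the tamoxifen library after depletion.

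Pthlh had no single home. After depletion it was higher under tamoxifen in 13 of the 15 clusters with 20 or more cells in both libraries, and at least 2-fold higher in 10 of them. It was at least 2-fold lower in 1, cluster 0 led by myeloid genes (40.4 CPM under vehicle, 5.84 CPM under tamoxifen). In cluster 14, led by Agr2, Ttr and the liver genes Alb and Apoa1, it was at 59.9 and 351.7 CPM after depletion under vehicle and tamoxifen. In cluster 1 the values were 144.0 and 430.1 CPM, and in the cycling cluster 13, led by Ube2c and Mki67, 52.9 and 170.8 CPM. Cluster 12, the site of Npy, was an exception, at 207.4 CPM under vehicle and 172.0 CPM under tamoxifen. Cluster 6, led by the type 2 cell genes Lyz1 and Scd1, was nearly without Pthlh in every library (0.597 to 4.74 CPM).

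Clusters found almost only under 1 treatment also carried much Pthlh. Cluster 18, led by Bpifa1 and Dlk1, held 1 and 17 vehicle cells and 164 and 1316 tamoxifen cells. It gave 48.0% and 40.3% of epithelial Pthlh UMIs in the tamoxifen libraries, at 509.4 and 357.1 CPM. Clusters 11 and 19, made up almost wholly of vehicle cells, were at 203.0 and 287.3 CPM in the vehicle library after depletion. With cluster 18 left out Pthlh was at 97.2 and 80.8 CPM under vehicle and 148.1 and 156.0 CPM under tamoxifen, so both tamoxifen libraries remained above both vehicle libraries, by less.

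**Figure D3:**
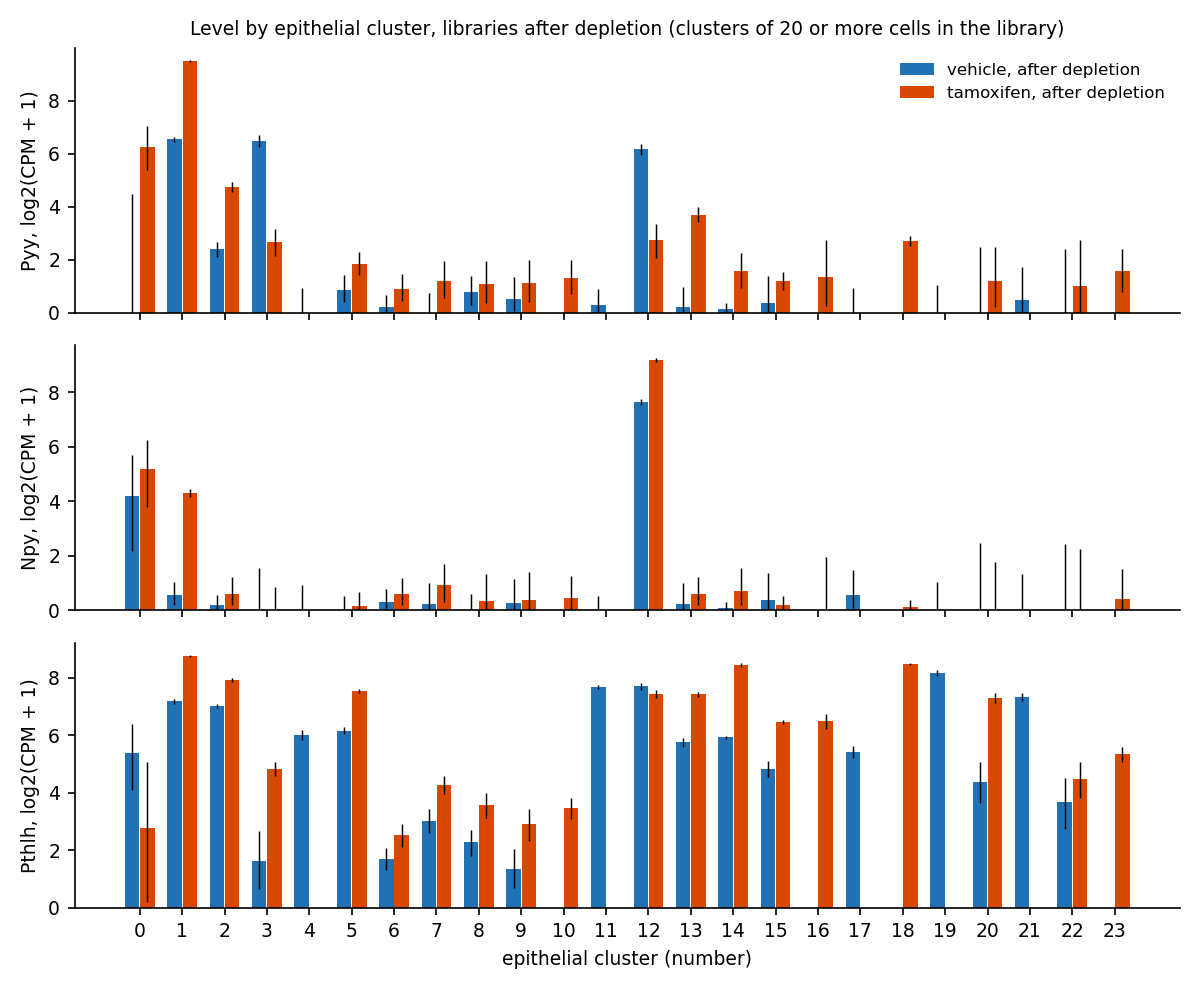
Level of Pyy, Npy and Pthlh in each epithelial cluster, log2(CPM + 1), in the vehicle (blue) and tamoxifen (orange) libraries after depletion; black lines are exact Poisson 95% intervals, and clusters with fewer than 20 cells in a library have no bar or line. The highest Pyy bar is cluster 1 under tamoxifen, the highest Npy bars are cluster 12 in both libraries, and Pthlh is spread over most clusters.

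The same cells seldom held Pyy and Npy. In the tamoxifen library after depletion, 1 cell had 10 or more UMIs of both, out of 109 Pyy and 25 Npy cells. In the vehicle library before depletion 1 of 4 Pyy cells was also 1 of the 3 Npy cells. None of the 17 Pyy cells of the vehicle library after depletion, and none of the 12 of the tamoxifen library before it, was such an Npy cell. At 5000 UMIs per cell, cells with both numbered 1, 0, 0 and 3 (vehicle before and after depletion, tamoxifen before and after). In the last library, where 210 cells had Pyy and 46 had Npy, independence would give 1.44 cells with both, a ratio of 2.08 (interval 0.430 to 6.09). The single cell with both under vehicle before depletion gave a ratio of 96.2 (interval 2.44 to 536), and at 2000 UMIs per cell no cell there held both. These intervals are too wide to say whether the genes avoid or favour each other.

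Pyy and Pthlh met more often. At 5000 UMIs per cell both were seen in 107 tamoxifen cells after depletion where independence would give 57.9, a ratio of 1.85 (interval 1.52 to 2.23), and in 9 cells before depletion where it would give 3.53, a ratio of 2.55 (interval 1.17 to 4.84). The ratio before depletion moved with the setting. It was 1.63 at 2000 UMIs per cell (3 cells with both) and 1.43 at 10000 UMIs. Without the cluster led by myeloid genes it was 1.35 (5 cells where independence would give 3.72), and with the gate on each cell it was 2.99. Under vehicle the counts at 5000 UMIs were 0 and 10 cells, the latter with a ratio of 1.49 (interval 0.714 to 2.74). When cells were compared only within their own cluster, the tamoxifen ratios were 1.14 before and 1.14 after depletion. These came from 9 cells where independence within clusters would give 7.87, and from 107 where it would give 93.9. The ratios were thus smaller within clusters than over all cells. The part of each cluster in the joint cells was not tested. Of the 109 cells with 10 or more Pyy UMIs in the tamoxifen library after depletion, 33 (30.3%) had 10 or more Pthlh UMIs. The share was 11.2% in the other cells of that library. These cells were not thinned, and the Pyy cells were deeper (median 21592 UMIs, against 16874.5 in all epithelial-like cells), so depth enters this comparison.

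Npy and Pthlh were together in 14 thinned tamoxifen cells after depletion where independence would give 12.7, a ratio of 1.10 (interval 0.604 to 1.85). The other 3 libraries had 0, 6 and 3 such cells, the last 2 with ratios of 2.56 (interval 0.940 to 5.57) under vehicle after depletion and 2.97 (interval 0.613 to 8.69) under tamoxifen before it. Hormone-rich cells were picked by 10 or more UMIs without thinning, which favours deep cells, so their depth is not a finding. Some held a UMI of the leukocyte gene Ptprc: 2, 0, 4 and 1 of the Pyy cells and 1, 0, 1 and 0 of the Npy cells. The shares in all epithelial-like cells were 16.8%, 0.478%, 18.2% and 0.651%. Cells with 10 or more Pyy UMIs had a median of 60594, 25109, 45655.5 and 21592 UMIs in the 4 libraries, and those with 10 or more Npy UMIs 61940, 29248, 30749 and 33158, against the medians of all epithelial-like cells given above. Median doublet scores were 0.0523 and 0.0477 for the Pyy and Npy cells of the tamoxifen library after depletion and 0.0507 for all epithelial-like cells there. The part of leukocyte RNA in these cells was not tested.

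Few of the neuroendocrine and granule genes were abundant enough to be counted. Of 44 genes in the lists for neuroendocrine identity (28 genes) and for granules and prohormone processing (16 genes), 8 reached 10 CPM, and none of these counted as higher or lower. At shares of 0.387% and 0.962% of all genes, none among 8 is not a result about these genes. The 5 granule genes had median log2 ratios of 0.42 before and 0.34 after depletion, the 3 identity genes -0.21 and -0.10, and all 9042 genes -0.04 and 0.01. In the identity list 17 of 28 genes stayed under 1 CPM in all libraries. Insm1, a transcription factor of endocrine cells, gave 0, 30, 0 and 12 UMIs, and Neurod1 gave none. The 3 identity genes with the highest mean level were Hes6, Ddc (aromatic amino acid decarboxylase) and Rab3c. Hes6 was at 43.4 and 48.7 CPM under vehicle and 40.7 and 45.2 CPM under tamoxifen. Ddc was at 33.5 and 37.4 CPM against 28.9 and 30.02 CPM, and Rab3c at 25.0 and 18.7 CPM against 16.5 and 18.1 CPM.

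Cpe and Ptprn lay just outside the rule. Cpe was at 23.6 and 18.3 CPM under vehicle and 47.2 and 61.8 CPM under tamoxifen, with log2 ratios of 0.97 and 1.70, and it counted as higher under 4 other settings (log2 before depletion 1.02 to 1.58). Ptprn, which encodes the granule membrane protein IA-2, was at 53.1 and 50.9 CPM against 106.1 and 93.8 CPM, log2 0.99 and 0.87. Below 10 CPM, 2 further granule genes, named after their values were seen, were higher under tamoxifen in both pairs. Resp18 was at 0.0627 and 0.192 CPM under vehicle and 1.04 and 0.911 CPM under tamoxifen. Its raw log2 ratios were 4.05 (interval 2.09 to 7.15, from 2 and 36 UMIs) and 2.25 (interval 1.63 to 2.92). Of its 122 UMIs in the tamoxifen library after depletion, 38 came from 1 cell, described further on. Cadps was at 0.126 and 0.531 CPM against 0.809 and 1.34 CPM, raw log2 ratios of 2.69 (interval 1.17 to 4.66) and 1.33 (interval 0.93 to 1.75). The other granule genes at 10 CPM kept similar levels across libraries: Pam, the most abundant at 287.2 to 298.0 CPM in all 4, Furin at 27.4 to 41.8 CPM, and Ptprn2 with log2 ratios of 0.42 and 0.34.

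Among 13 enteroendocrine hormone genes, Pyy and Ghrl reached 10 CPM. Ghrl, the ghrelin gene, was at 23.7 and 30.9 CPM under vehicle and 42.1 and 31.3 CPM under tamoxifen, log2 0.80 and 0.02. Tph1, the enzyme of gut serotonin synthesis, was lower in level than these at 0.780 to 2.42 CPM. Some hormone genes below 10 CPM, named after their values were seen, differed between treatments. Gcg gave 5 and 24 UMIs under vehicle and 8 and 152 under tamoxifen, raw log2 0.56 (interval -1.23 to 2.52) and 2.68 (interval 2.06 to 3.37). Cck gave 0 and 5 against 7 and 45 UMIs. Tac1 went the other way, with 9 and 34 against 0 and 6 UMIs, as did Tph1. Their spread over cells is not given here. Of the 8 regulators of enteroendocrine cells, Etv1 alone reached 10 CPM (16.0 to 21.9 CPM), Pax4 and Lmx1a stayed under 0.3 CPM, and Neurog3 gave no UMI. Of 22 other genes for secreted peptides, 4 reached 10 CPM. Over all 9042 genes 0.387% counted as higher and 0.962% as lower, and Npy and Pthlh had been picked because they rose. Npy and Pthlh counted as higher, Gdf15, a stress-induced cytokine, counted as lower (240.9 and 376.3 CPM under vehicle, 82.9 and 120.5 CPM under tamoxifen), and endothelin 1 (Edn1) did not count, with log2 ratios of -0.23 and -0.82. Of 5 peptides of pulmonary neuroendocrine cells none reached 10 CPM. Nmb was at 3.24 to 4.20 CPM, and Iapp had 149 UMIs in 3 cells of the tamoxifen library before depletion and at most 1 UMI in the others.

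**Figure D4:**
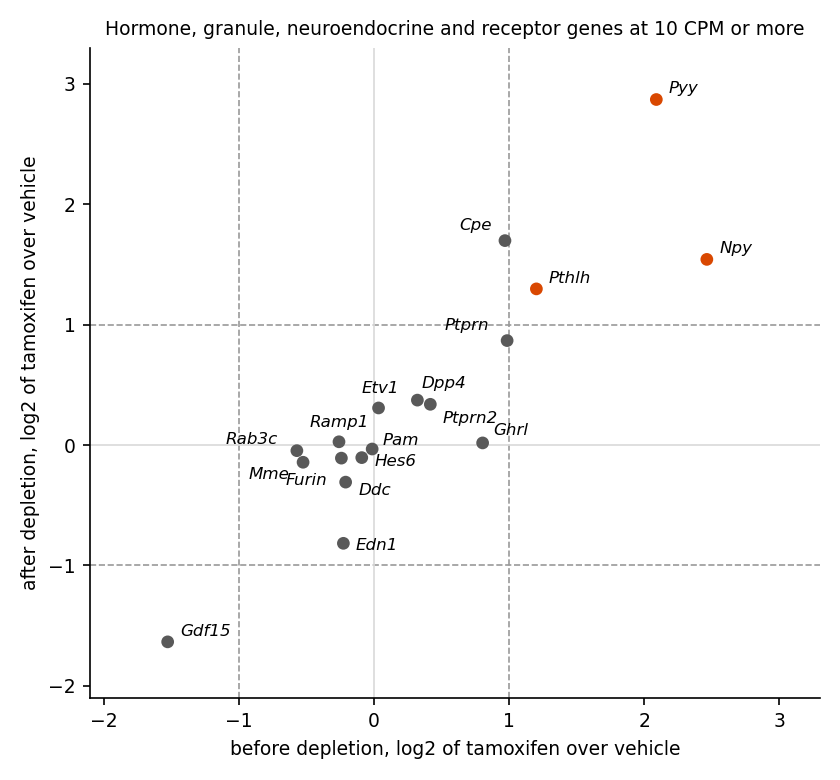
Log2 ratio of tamoxifen over vehicle CPM (1 CPM added) in epithelial-like cells, before depletion on the x axis and after depletion on the y axis, for the genes of the 7 lists that reached 10 CPM; dashed lines mark 2-fold differences. Pyy, Npy and Pthlh (orange) lie beyond both upper lines and Gdf15 beyond both lower lines, Cpe and Ptprn lie at the edge, and Pam, Furin, Hes6, Ddc and Rab3c lie within 2-fold.

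Some granule genes were higher in cells rich in Pyy or Npy than in all other epithelial-like cells, in part as a feature of their clusters. In the tamoxifen library after depletion, Cpe was at 251.4 CPM in the 109 cells with 10 or more Pyy UMIs and 58.0 CPM in all other epithelial-like cells. The same held in the other 3 libraries, with 270.6 against 21.7 CPM and 207.0 against 17.7 CPM under vehicle and 205.3 against 44.1 CPM under tamoxifen before depletion. In cluster 1 as a whole Cpe was at 70.7 and 67.9 CPM under vehicle and at 100.4 and 161.9 CPM under tamoxifen, below its level in the Pyy cells. Npy cells had still more Cpe: 910.4 and 922.8 CPM under vehicle and 679.5 and 500.4 CPM under tamoxifen, against 16.99 to 58.6 CPM in the other cells. Their cluster as a whole was rich in Cpe, at 458.1 CPM under vehicle and 445.2 CPM under tamoxifen after depletion. Ptprn was higher in both kinds of cell in every library, for Pyy 108.1 to 244.1 CPM against 50.8 to 104.4 CPM in the others. Pam was at 440.8 to 582.2 CPM in Pyy cells against 283.7 to 297.2 CPM in the others, but cluster 1 as a whole had both genes in the same range. Its Ptprn was at 230.5 and 150.6 CPM under vehicle and 211.3 and 241.8 CPM under tamoxifen, and its Pam was at 424.2 to 580.2 CPM. For Pam, Npy cells after depletion did not exceed the others (217.1 against 298.1 CPM under vehicle, 287.9 against 291.2 CPM under tamoxifen).

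Chga, Pcsk1 and Calca were at or near 0 in the same cells, as they were in the others. Of the 109 cells with 10 or more Pyy UMIs in that library, none had a Chga UMI, 1 had Pcsk1, 1 had Calca and 10 had Scg5. Of the 25 Npy cells, none had a UMI of any of the 4 genes. In the other 3 libraries no Pyy or Npy cell had a UMI of Chga, Pcsk1 or Scg5, and 1 Npy cell of the vehicle library before depletion had Calca. The interval for Chga in the 109 Pyy cells reaches up to 1.41 CPM, above its 0.0991 CPM in the other cells, so a difference was not detectable at this depth. Ddc was lower in Pyy cells than in the others in all 4 libraries, for example 2.30 against 30.6 CPM in the tamoxifen library after depletion. Other identity genes, named after their values were seen, went the other way. Prox1 was higher in Pyy cells in all 4 libraries, at 6.50 against 1.06 CPM in the last library and from 1 UMI in each of the others. Ncam1 was at 98.4 against 2.53 CPM and 27.6 against 1.89 CPM under vehicle. Under tamoxifen it was at 0 against 1.41 CPM and 4.97 against 1.54 CPM.

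**Figure D5:**
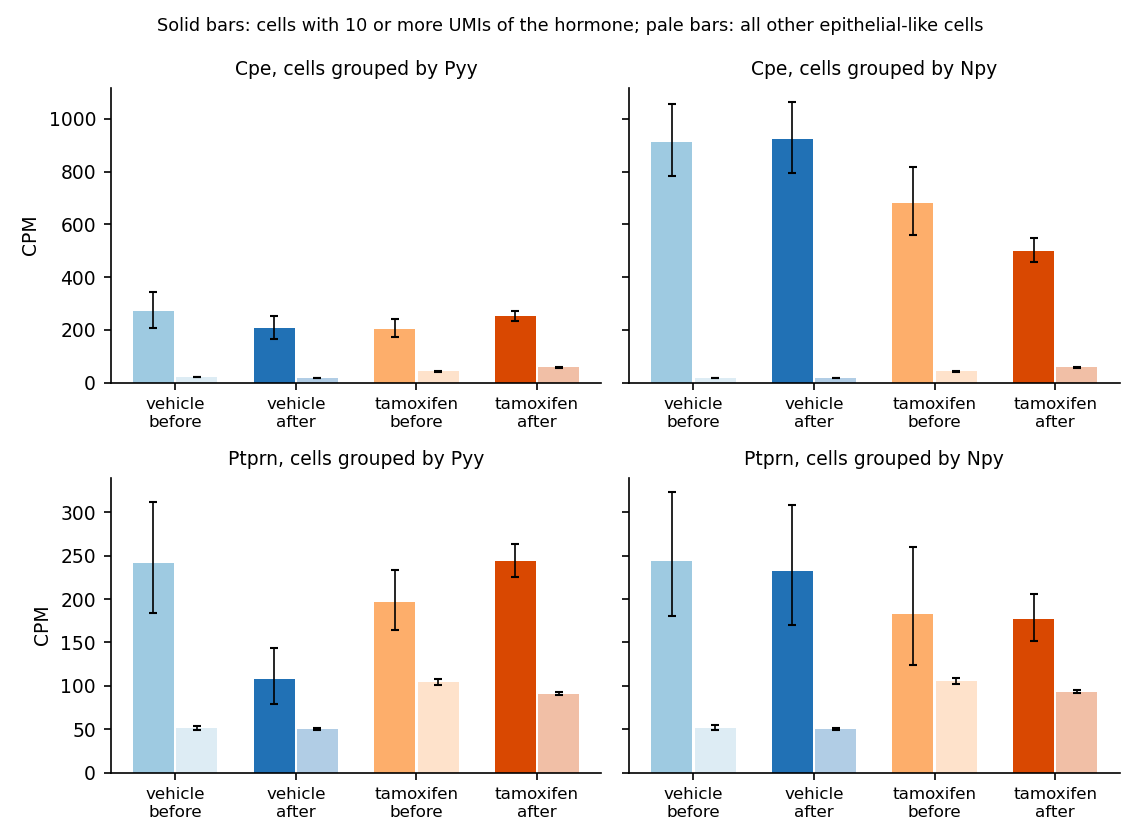
Level of Cpe (top) and Ptprn (bottom), in CPM from 0, in cells with 10 or more UMIs of Pyy (left) or Npy (right) and, in paler bars, in all other epithelial-like cells of the same library; black lines are exact Poisson 95% intervals. In every library the darker bar stands above the paler one, most of all for Cpe in Npy cells under vehicle (910.4 and 922.8 CPM against 18.1 and 16.99 CPM).

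Summed over the 13 genes of the granule list that are neither Chga, Scg5 nor Pcsk1, thinned cells with a Pyy UMI held a mean of 4.89 ± 3.81 UMIs (SD over 210 cells) in the tamoxifen library after depletion, and cells without one 2.29 ± 2.85 (6500 cells). The mean was higher in hormone-positive cells for Pyy, for Npy and for Pthlh in all 4 libraries. It was so without Pam too, for example 2.39 against 0.907 UMIs for Pyy in that library. The identity list was lower in Pyy cells in 3 libraries, for example 0.381 ± 0.895 UMIs against 0.570 ± 0.893 in the tamoxifen library after depletion, and higher in the 5 Pyy cells of the vehicle library before depletion (1 against 0.601).

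For Npy the identity list was higher in hormone-positive cells in all 4 libraries, for example at 4.20 ± 5.32 UMIs (15 cells) against 0.608 ± 0.893 in the vehicle library after depletion. Uchl1, Stmn2 and Ncam1, genes of neurons that other cells can also express, were among its higher members and were named after their values were seen. So was Snap25, whose 103 UMIs in the tamoxifen library after depletion came from 1 Npy cell. Uchl1 was at 399.7 CPM in the 6 Npy cells of the vehicle library after depletion, against 5.96 CPM in the others. It was at 46.1 against 3.02 CPM in the 25 Npy cells of the tamoxifen library after depletion, where 12 of 25 cells had a UMI. Stmn2 was at 429.3 CPM from 2 of the 6 vehicle cells and at 112.0 CPM from 8 of the 25 tamoxifen cells, against 1.09 and 0.572 CPM in the others, and it gave no UMI in the Npy cells of the libraries before depletion. The 190 Uchl1 UMIs in Npy cells of the tamoxifen library before depletion came from 1 cell. Ncam1 was higher in Npy cells in all 4 libraries, from 31.4 CPM against 1.39 CPM to 165.4 CPM against 0.581 CPM. The most abundant identity genes did not rise with these. Ddc and Rab3c were lower in Npy cells in all 4 libraries, at 2.09 against 30.2 CPM and 4.19 against 18.2 CPM under tamoxifen after depletion. Hes6 was at 49.35 against 48.68 CPM under vehicle after depletion and lower in Npy cells of the other libraries. Levels of the higher genes in cluster 12 as a whole are not given here.

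A cell with the classical neuroendocrine profile was found once. Of 8 markers of that type, among them Calca, Chga, Syp and Insm1, 3 or more were seen in 0 of 1033, 1 of 6482, 0 of 1068 and 1 of 7068 epithelial-like cells. The tamoxifen cell had 13958 UMIs and 7 of the 8 markers, among them 74 Calca, 38 Resp18, 11 Scg2, 9 Chga, 2 Syp and 1 Insm1 UMIs. It also held 23 Pcsk1, 3 Scg5 and 24 Epcam UMIs, but no Pyy, Npy or Pthlh. This cell gave 74 of the 79 Calca UMIs, 9 of the 13 Chga UMIs and 23 of the 28 Pcsk1 UMIs of its library, and without it Calca and Pcsk1 were each at 0.0374 CPM. The vehicle cell had 3 markers at 1 to 3 UMIs each among 77507 UMIs, lay in cluster 12 and held 36 Pthlh UMIs.

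Other cell classes were compared in the libraries before depletion, which held the leukocytes. Pyy was at 0 to 2.79 CPM and Npy at 0 to 1.87 CPM in every other named class of 50 or more cells there. Pthlh reached 21.4 CPM in dendritic-like and 15.6 CPM in T cell-like cells of the tamoxifen library, from 6 and 18 cells. Calca and Pcsk1 were at 38.8 and 7.95 CPM in T cell-like cells under vehicle and at 11.2 and 3.94 CPM under tamoxifen, above their epithelial levels. In the tamoxifen library the unnamed cells had more Calca, 20.1 CPM, from 43 UMIs in 2 cells. In the T cell-like cluster led by Cd163l1, Trdc and Il17a, genes of gamma-delta T cells, Calca gave 276 UMIs in 33 of 153 vehicle cells and 46 UMIs in 16 of 79 tamoxifen cells (117.5 and 49.2 CPM). Pcsk1 was at 35.1 and 37.8 CPM in the T cell-like cluster led by Ikzf2, Ctla4 and Foxp3, genes of regulatory T cells.

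Receptors were read in the same libraries. Pth1r, the receptor for parathyroid hormone-related protein, was at 49.6 CPM under vehicle and 60.2 CPM under tamoxifen in an unnamed cluster of 119 and 83 cells led by Mgp, Col1a2 and Col1a1, and at 1.22 and 1.01 CPM in epithelial-like cells. Npy1r was at 3.55 and 8.35 CPM in that cluster, from 10 and 14 UMIs. Npy2r, which binds Pyy and Npy, was at 1.98 and 1.91 CPM in epithelial-like cells. In endothelial-like cells Npy2r was at 4.41 CPM under vehicle, from 10 UMIs, and at 0.549 CPM under tamoxifen, from 1 UMI. Calcrl, a subunit of the CGRP receptor, was at 804.4 and 907.7 CPM in endothelial-like cells. Of the genes for its partner subunits, Ramp1 was at 3.08 and 4.39 CPM there and Ramp2 at 735.7 and 937.4 CPM. Which peptides those cells could bind was not tested. Of 15 receptor and peptidase genes 3 reached 10 CPM in epithelial-like cells and none counted as higher or lower. At shares of 0.387% and 0.962% of all genes, none among 3 is not a result about these genes. Dpp4, the peptidase that trims Pyy and Npy, was the most abundant, at 173.2 and 154.5 CPM under vehicle and 216.6 and 200.4 CPM under tamoxifen.

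The genes whose pattern over epithelial-like cells was most like each hormone were ranked by the mean over the 4 libraries of Pearson's r on log-scaled counts, among 8485 genes at 10 CPM or more in all libraries. The cells of a library share its depth and its clusters, so these values are descriptions. For Pyy they were Ctse (mean r 0.31), Onecut2 (0.30), Tnfaip8 (0.25), Gzme (0.24) and Igfbp4 (0.23). For Npy they were Inhba (0.42), Pcdh7 (0.32), Cpe (0.28), Ecm1 (0.24) and Fxyd5 (0.23), and for Pthlh Gkn2 (0.46), Fam107b (0.41), Ptprn (0.40), Itga6 (0.39) and Itih2 (0.39). The lists of 5 had no gene in common. Apart from Itih2, with log2 ratios of 1.41 and 1.37 between treatments, none of these 15 genes was at least 2-fold higher under tamoxifen in both pairs. Over all 9042 genes that reached 10 CPM in each pair, the share was 0.387%. Inhba was lower in level under tamoxifen (40.7 and 24.03 CPM under vehicle, 16.7 and 17.8 CPM under tamoxifen).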

How the data were processed

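Single-cell RNA of 4 libraries, 1 per group, was analysed. The authors deposited raw UMI counts per gene and barcode, written by cellranger 7.0.1 per the file headers; the submitters' processing notes name Cell Ranger 7.2.0 and mm10. Whether intronic reads and strand entered the counts is not given in the sources used here.

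Barcodes under 200 detected genes or over 20% mitochondrial UMIs were dropped, as were those whose Scrublet score reached 0.25 (122 to 216 cells per library) were removed. The 27465 kept cells were clustered with scanpy 1.11.5 (2000 variable genes, 40 components, 15 neighbours, Leiden resolution 1) and named from fixed markers, at least 3 of which had to be seen in 10% of a cluster's cells. Epithelial-like cells were clustered again without the genes described. UMIs were summed per library and class and scaled to CPM by the class total. Intervals are exact (Poisson, conditional binomial for ratios, Clopper-Pearson for shares). Independence ratios divide cells with both genes by the product of the shares times the cells. Simulated counts were used to test the size rule. TMM factors for an alternative came from edgeR 4.0.16.

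The 7 genes and the lists were chosen with earlier results of these data known. Named beside them are the genes of each list that counted, otherwise the 3 with the highest mean CPM, the receptors, and the 5 genes most like each hormone. Genes named in clusters are among their 10 leading genes. Positions are GRCm38; RefSeq windows matched all 7 genes. Some genes of the neuroendocrine lists are not reported here.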

Additional observations from a re-analysis of the deposited data

How the results depend on the processing

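No paired analysis was possible because each group holds 1 library and the labels give no replicate numbers. The alternatives that leave out the fullest cell, leave out the cluster led by myeloid genes, or count joint cells at 10 or more UMIs without thinning were chosen after seeing the data. Of 168 alternatives for the 7 genes' ratios, 1 turned the direction of a gene that counted: Npy before depletion, at -0.046 without the fullest cell of each library. Without the 10 fullest cells its ratio there was 0 by construction, since 6 cells of each library held Npy. Pcsk1 after depletion, which did not count, was at 0.15 and turned to -0.05 and -0.01 without the fullest cell and the 10 fullest cells. With other scalings, pseudocounts, cell filters and the gate on each cell (epithelial genes present, Ptprc and Pecam1 absent), log2 ratios ran from 1.95 to 3.10 (Pyy), 1.74 to 2.81 (Npy) and 0.89 to 1.39 (Pthlh) before depletion and from 2.52 to 3.19, 1.05 to 1.82 and 1.22 to 1.31 after it.

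The count of genes that stood higher (35) was 19 with a pseudocount of 5 CPM and 3 at a log2 ratio of 2. The count that stood lower (87) was 54, 10, 53 with the mean over each cell's CPM and 164 with no CPM minimum. The count of neuroendocrine and processing genes standing higher was 1 in place of 0 with TMM factors, with median-of-ratios size factors, with the mean over cells and with no doublets removed; the gene was Cpe each time. The ratio of joint cells for Pyy and Npy in the vehicle library before depletion, 96.2 from 1 cell, was 0 at 2000 UMIs per cell and 0 with the gate on each cell. For Pyy and Pthlh under tamoxifen it was 1.14 before depletion within clusters, and after depletion 1.41 at 10000 UMIs, 1.14 within clusters and 2.63 at 10 or more UMIs. For Npy and Pthlh under vehicle after depletion it was 0.458 with the gate and 6.28 at 10 or more UMIs. The cause was not tested. Unthinned shares of cells with a UMI depend on depth, and thinned shares stand beside them. Shares with 10 or more UMIs were not thinned. With 1 library per group, differences between animals or tumours within a treatment are not measured, and treatment and suspension cannot be told apart.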
